A study of Rattus norvegicus with 6 samples.

Results

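MHC class II molecules present peptides from endosomes to CD4+ T cells. Their 9 genes followed here were Cd74, RT1-Ba, RT1-Bb, RT1-Da, RT1-Db1, RT1-DMa, RT1-DMb, Ciita and Ctss, chosen by exact gene symbol among 22050 genes of a rat RNA-seq table. All 9 were in the table, and all 9 were among the 14426 genes with enough counts to test. Libraries came from spinal cord tissue of adult male Sprague-Dawley rats, 3 labelled Sham (sham surgery) and 3 labelled SNI-NP. SNI, spared nerve injury, is an operation that cuts some branches of the sciatic nerve and leaves another intact, and NP stands for neuropathic pain. The paper gives sham surgery as the control without listing its steps, and no agent or transgene is named for either group. The time after surgery and the spinal segment of these 6 libraries are not given in the sources used here. Neither is it stated whether a library is 1 rat or a pool, so p-values measure the spread between these libraries.

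An MHC class II molecule is an alpha and a beta chain that assemble with the invariant chain, Cd74, in the endoplasmic reticulum. In endosomes, proteases including cathepsin S (Ctss) trim the invariant chain to a fragment that the DM heterodimer (RT1-DMa and RT1-DMb) exchanges for a peptide. RT1-Da with RT1-Db1 and RT1-Ba with RT1-Bb encode the chains of the D and B molecules of the rat, which correspond to human HLA-DR and HLA-DQ. Ciita is the coactivator that switches on the chains, the invariant chain and DM together, and it is recruited by factors bound at the X and Y boxes of their promoters. In nervous tissue, microglia, macrophages of the meninges and vessels, dendritic cells and B cells are the known carriers of class II.

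Shared promoter boxes are a known trait of class II genes. A promoter was available from RefSeq (build GRCr8) for 7 of the 9 genes, as the 250 bases before to 50 bases after the start, and RT1-DMb and Ciita were without one. X-box-like letters were searched as ACNGATG and Y-box letters as TGATTGG on both strands. Both sets of letters were chosen after these promoters had been read. The stretch from 10 bases before the first match to 5 bases after the last, 5′ to 3′ on the strand of the gene, is shown for the 5 promoters with the Y letters, since these 5 genes encode class II or DM chains described next. RT1-Ba, without the X letters, is shown over a similar length. Capitals mark the searched letters.
RT1-Da (chr20:4515326-4515375, plus strand): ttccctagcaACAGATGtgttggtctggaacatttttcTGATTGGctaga
RT1-Db1 (chr20:4560233-4560281, minus strand): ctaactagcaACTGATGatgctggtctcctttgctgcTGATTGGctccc
RT1-Ba (chr20:4576971-4577023, plus strand): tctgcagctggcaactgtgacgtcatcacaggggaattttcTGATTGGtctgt
RT1-Bb (chr20:4604170-4604218, minus strand): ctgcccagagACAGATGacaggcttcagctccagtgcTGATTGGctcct
RT1-DMa (chr20:4712390-4712439, minus strand): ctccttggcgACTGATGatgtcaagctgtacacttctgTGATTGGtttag

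RT1-Da, RT1-Db1, RT1-Bb and RT1-DMa held X letters followed by Y letters on one strand, with 27 or 28 bases from the start of one to the start of the other. Among all 33469 promoters of this length, 10.2% held the X letters, 7.06% the Y letters and 14 promoters (0.0418%) the pair at 15 to 40 bases. Of these 14 entries, 6 were RT1 genes, the other RT1 entries being RT1-Db2 and RT1-DOb. The promoters of the 4 members had been read before the letters were chosen, so their matches are no test. RT1-Ba held the Y letters alone, Ctss the X letters alone and Cd74 neither. A match is only a match of letters, and missing letters do not show that a promoter lacks the box. In the order of GRCr8, RT1-Da, RT1-Db1, RT1-Ba, RT1-Bb, RT1-DMb and RT1-DMa follow each other on chromosome 20, while Cd74, Ciita and Ctss lie on chromosomes 18, 10 and 2.

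The 6 libraries held 16670760 to 18151156 estimated counts. A gene at 0 counts could be at up to 0.18 CPM (counts scaled to a common depth of 1e+06, with TMM-scaled library sizes) by counting error alone. The tissue label was checked against marker genes: 5 peripheral myelin markers summed to 76900 to 118000 CPM, the central myelin gene Mog at 41 to 126 CPM, and the sensory neuron sodium channel gene Scn10a at 14.3 to 277 CPM. The mixture of peripheral and central tissue differed between libraries, and its part in the results on class II was not tested. In bulk tissue, fewer cells of a type and less RNA per cell cannot be told apart.

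Between the groups, Ctss was lower in SNI-NP and the other 8 genes had no difference that passed the threshold. At an unadjusted p under 0.05 with a fold change of at least 1.2 (edgeR's quasi-likelihood test), 1 of the 9 genes was called, against 10.4% of all genes tested. That 1 gene was lower, where 5.9% of all genes were, and 0 were higher, where 4.54% of all genes were. The share of class II genes called was thus close to the background. At a Benjamini-Hochberg adjusted p under 0.05, edgeR called 0 of the 9 genes and 0% of all genes (smallest adjusted p 0.116), and DESeq2 called 0 of the 9 and 1.46% of all genes. The median log2 fold change of the 9 genes was 0.21, with 6 above 0 and 3 below, beside a median of 0.0057 over all genes, of which 7341 were above 0 and 7085 below. Without 1 library at a time the median of the 9 lay between 0.068, without SNI-NP replicate 2, and 0.49, without Sham replicate 2.

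**Figure D1:**
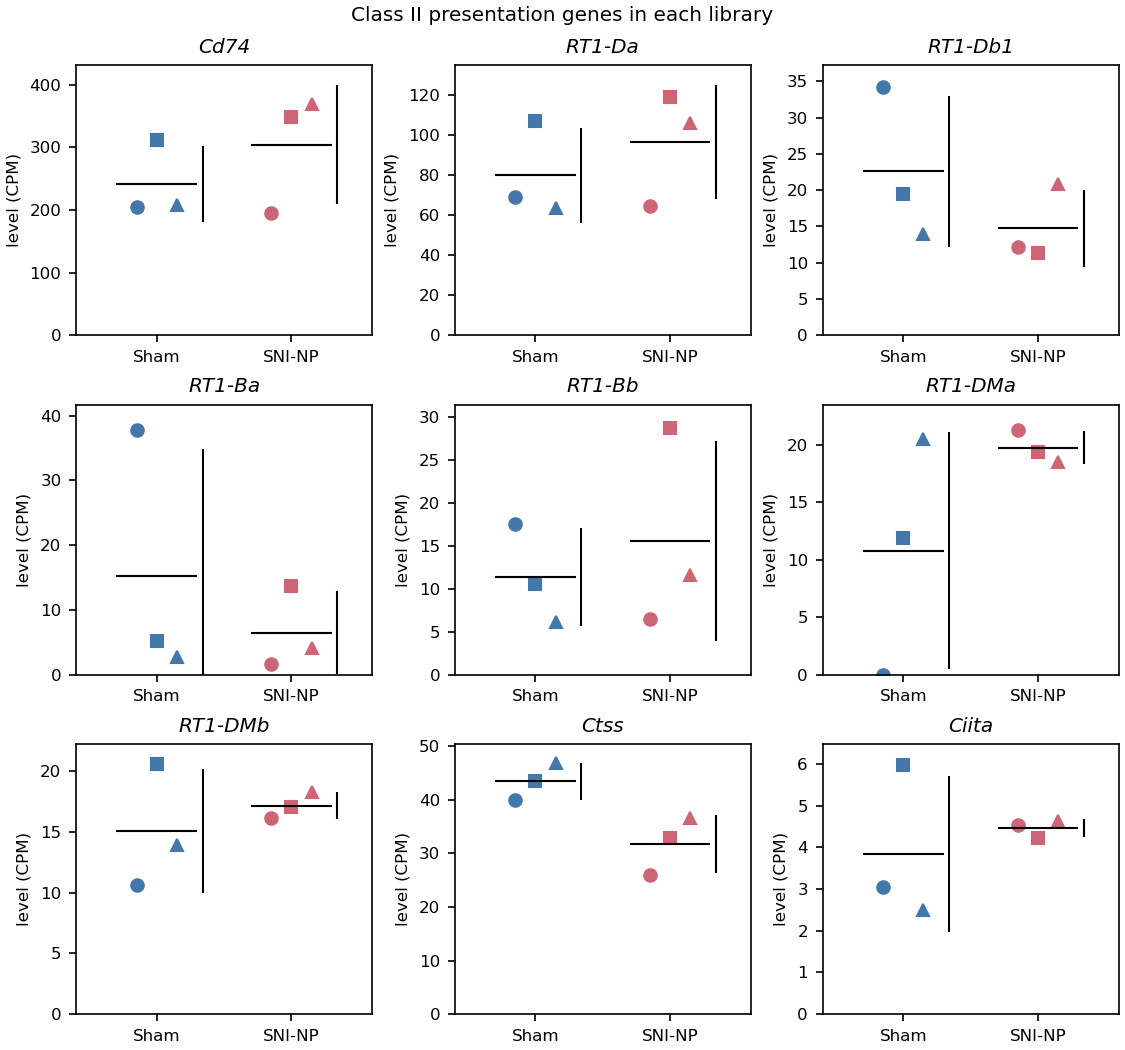
Level (CPM, linear axis from 0) of each of the 9 genes in the 3 Sham (blue) and 3 SNI-NP (red) libraries, where circles, squares and triangles are replicates 1, 2 and 3, horizontal lines are group means and vertical lines are mean ± SD, ended at 0 where they would pass below it. Ctss alone has groups that do not overlap, RT1-Ba is set apart by Sham replicate 1 at 37.8 CPM, and RT1-DMa is at 0 in that library.

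Cd74 was the most abundant of the 9 genes. Per length, it averaged 243 FPKM (fragments per kilobase of gene, scaled to depth) over the 6 libraries, above RT1-Da at 74.1, Ctss at 38.1 and RT1-Db1 at 16.6 FPKM, and each step of this order held in 6 of 6 libraries. RT1-DMa, RT1-DMb and RT1-Bb followed at 14.2, 12.4 and 11.8 FPKM, RT1-Ba at 9.78 FPKM and Ciita, a coactivator gene, at 0.805 FPKM. The values of RT1-DMa and RT1-DMb leave out their copies, LOC108348072 at 7.47 FPKM and LOC108348139 at 12.4 FPKM. Their places in this order therefore hold only for the entries under their own symbols. From RT1-Db1 to RT1-Bb the neighbours could not be ordered, since RT1-Db1 exceeded RT1-DMa in 3 of 6 libraries, RT1-DMa exceeded RT1-DMb in 4 of 6 and RT1-DMb exceeded RT1-Bb in 3 of 6. RT1-Bb exceeded RT1-Ba in 5 of 6 libraries, the exception being Sham replicate 1.

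For the invariant chain, Cd74 was at 204, 312 and 208 CPM in Sham replicates 1 to 3 and at 195, 349 and 369 CPM in SNI-NP replicates 1 to 3. Sham replicate 2 stood with SNI-NP replicates 2 and 3, and SNI-NP replicate 1 was the lowest of all, so the groups overlapped. Its means were 242 ± 61.5 and 304 ± 95.3 CPM (SD, n = 3 each), and its log2 fold change was 0.33 (SE 0.27, 95% interval -0.30 to 0.97, edgeR adjusted p = 0.654). The interval covers a change of nearly this size in the lower direction and a larger one in the higher. Without SNI-NP replicate 1 the log2 fold change of Cd74 was 0.55 and passed the unadjusted threshold. That library also had the lowest summed level of sensory neuron markers, 205 CPM against 592 to 1850 CPM in the others, and the part of this difference was not tested.

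RT1-Da, the alpha chain of the D molecule, followed Cd74 closely. It was at 69.0, 107 and 63.4 CPM in Sham and at 64.3, 119 and 106 CPM in SNI-NP. The same 3 libraries as for Cd74 were high, and the groups overlapped. Its log2 fold change was 0.27 (SE 0.27, 95% interval -0.37 to 0.91, edgeR adjusted p = 0.722). For every 100 counts of Cd74, RT1-Da had 33.9, 34.3 and 30.4 counts in Sham and 33.0, 34 and 28.7 counts in SNI-NP, a range of 1.19 times where each gene alone ranged 1.87 to 1.89 times.

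RT1-Db1, the beta chain that pairs with RT1-Da, did not follow it. It was at 34.2, 19.5 and 14.0 CPM in Sham and at 12.1, 11.3 and 20.8 CPM in SNI-NP. Sham replicate 1 was the highest by a wide margin, and SNI-NP replicate 3 lay above Sham replicates 2 and 3. The log2 fold change was -0.62 (SE 0.37, 95% interval -1.48 to 0.24, edgeR adjusted p = 0.551), and it depended on single libraries: it was -0.21 without Sham replicate 1, -0.95 without SNI-NP replicate 3 and -0.89 without Sham replicate 3, the last 2 past the unadjusted threshold. RT1-Da had 202, 548 and 454 counts for every 100 of RT1-Db1 in Sham and 532, 1050 and 511 in SNI-NP. The low ratio belonged to Sham replicate 1 and the high ratio to SNI-NP replicate 2, one library of each group.

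The chains of the B molecule varied widely between libraries of one group. The alpha chain, RT1-Ba, was at 37.8, 5.24 and 2.79 CPM in Sham (630, 93 and 48 counts) and at 1.61, 13.7 and 4.12 CPM in SNI-NP (28, 246 and 71 counts). Sham replicate 1 was highest and SNI-NP replicate 2 next, and the highest level was 23.5 times the lowest. The log2 fold change was -1.24 (SE 1.06, 95% interval -3.72 to 1.25, edgeR adjusted p = 0.671). Its sign rested on Sham replicate 1, without which it was 0.67, and it was -2.43 without SNI-NP replicate 2. The spread within groups, an SD of 1.73 on the log2 scale, was larger than that of 99.4% of all genes tested.

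The beta chain RT1-Bb was at 17.5, 10.6 and 6.17 CPM in Sham and at 6.44, 28.7 and 11.6 CPM in SNI-NP. The same pair of libraries, Sham replicate 1 and SNI-NP replicate 2, held its highest levels. Its log2 fold change was 0.45 (SE 0.57, 95% interval -0.89 to 1.79, edgeR adjusted p = 0.786), and it was -0.36 without SNI-NP replicate 2. RT1-Ba had 49.5 and 45.3 counts for every 100 of RT1-Bb in Sham replicates 2 and 3 and 25.0, 47.6 and 35.5 in SNI-NP, but 216 in Sham replicate 1.

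**Figure D2:**
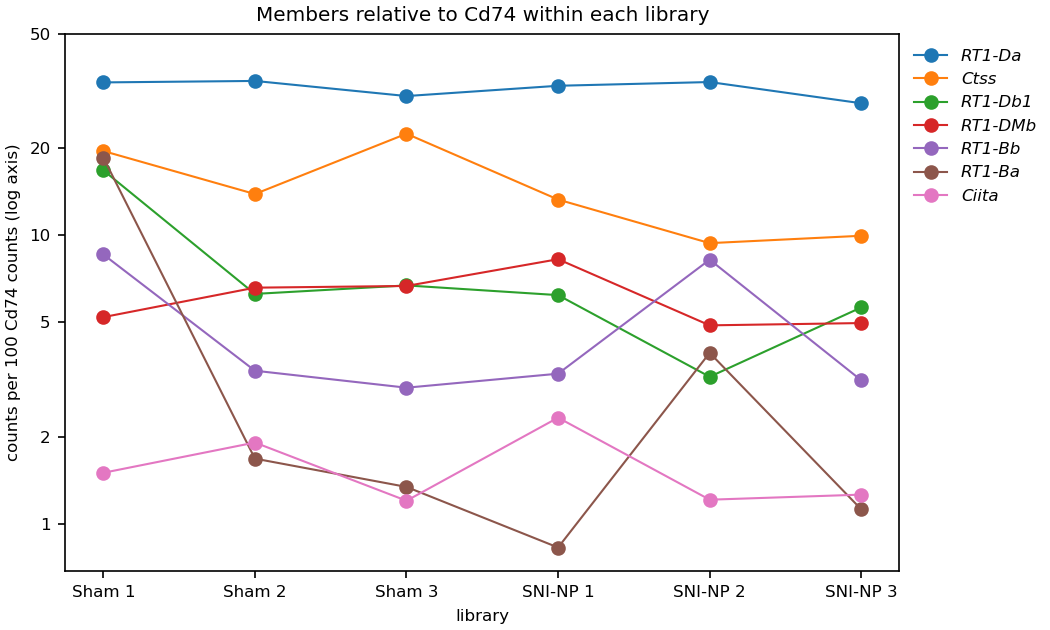
Counts of 7 class II genes for every 100 Cd74 counts in each of the 6 libraries (log axis; lines join the values of one gene and libraries have no order). RT1-Da stays between 28.7 and 34.3, while RT1-Ba runs from 0.826 to 18.6 with its peaks in Sham replicate 1 and SNI-NP replicate 2.

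These 2 libraries also stood apart in how RT1-Bb was measured. The gene length that the count, the library total and the FPKM together imply was 0.784, 0.758, 0.755 and 0.772 kb for RT1-Bb in Sham replicates 2 and 3 and SNI-NP replicates 1 and 3. It was 1.74 kb in Sham replicate 1 and 1.84 kb in SNI-NP replicate 2, a range of 2.44 times. Of 11667 genes with at least 1 FPKM and 30 counts in every library, 3 had a range at least this wide and 1.73% had a range over 1.2 times. On the FPKM scale RT1-Bb was therefore flatter, at 8.17 to 15.7 FPKM, and limma on log2(FPKM + 1) gave a log2 fold change of 0.22. The class I gene LOC103690108, chosen after its values were seen, was present in the same libraries: it had 957.61 counts in Sham replicate 1, 924.73 in SNI-NP replicate 2 and at most 3.75 in any other. RT1 genes are among the most polymorphic of the rat and Sprague-Dawley rats are outbred. Which RT1 alleles each rat carried was not tested.

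A wide spread was common among the RT1 genes. Of the 22 tested genes with a symbol beginning RT1-, 11 had a within-group SD above the 90th percentile of all genes tested. Of the 15 of them with a mean of at least 10 CPM, 12 were above the 90th percentile, 0.43 on the log2 scale, of the 9435 genes at that level, and their median SD was 0.60 on the log2 scale beside 0.17 for all. Cd74, which lies off the RT1 cluster, had an SD of 0.44, as RT1-Da did and just above that percentile. Ctss had one of 0.20, where 43.6% of all genes tested had a smaller one.

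RT1-DMa and RT1-DMb, the chains of the peptide exchange factor, each have a second entry in the table, LOC108348072 and LOC108348139. RT1-DMa was at 0, 11.9 and 20.5 CPM in Sham and at 21.3, 19.4 and 18.5 CPM in SNI-NP. Its copy LOC108348072 had 303, 192.34 and 64.44 counts in Sham and 62.81, 94.04 and 125.02 in SNI-NP, highest where RT1-DMa was at 0. Summed, the 2 entries had 18.2, 22.8 and 24.2 CPM in Sham and 25.0, 24.7 and 25.8 CPM in SNI-NP. The sum ranged only 1.42 times, and RT1-DMa took 0%, 52.4% and 84.5% of it in Sham and 85.5%, 78.8% and 71.9% in SNI-NP.

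The change of RT1-DMa alone is therefore uncertain. Its log2 fold change was 0.87 (SE 1.03, 95% interval -1.54 to 3.28, edgeR adjusted p = 0.768), fitted with 1 library at 0, and it was 0.28 without Sham replicate 1. The sum with the copy, an analysis added after seeing the data, had a log2 fold change of 0.21 (SE 0.14, 95% interval -0.11 to 0.53, edgeR adjusted p = 0.577). All 3 SNI-NP libraries lay above all 3 Sham libraries for this sum, as for 10.3% of all genes tested in that direction. RT1-DMb shared its counts evenly with its copy, its share of the sum being 49.9% to 50% in every library. Its own level was 10.6, 20.6 and 13.9 CPM in Sham and 16.1, 17.0 and 18.3 CPM in SNI-NP. SNI-NP lay inside the range of Sham, and the log2 fold change was 0.19 (SE 0.24, 95% interval -0.37 to 0.75, edgeR adjusted p = 0.783). It was 0.49 without Sham replicate 2, past the unadjusted threshold, and -0.031 without Sham replicate 1.

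**Figure D3:**
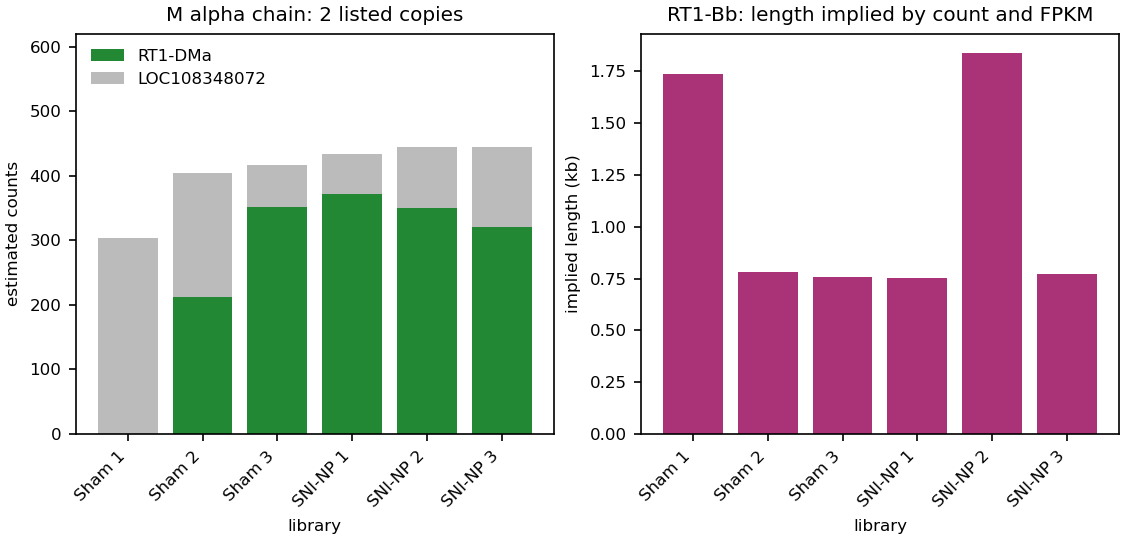
Left, estimated counts of RT1-DMa (green) and of its copy LOC108348072 (grey), stacked, in each library; right, the length of RT1-Bb in kb implied by its count and FPKM in each library. The green part is absent in Sham replicate 1 while the stack stays between 303 and 445 counts, and RT1-Bb is at 1.74 and 1.84 kb in Sham replicate 1 and SNI-NP replicate 2 but at or below 0.784 kb in the others.

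Ciita, the class II coactivator, was expressed at a low level. It was at 3.06, 5.97 and 2.50 CPM in Sham (51, 106 and 43 counts) and at 4.54, 4.22 and 4.64 CPM in SNI-NP (79, 76 and 80 counts). The SNI-NP libraries were close together inside the range of Sham. Its log2 fold change was 0.21 (SE 0.34, 95% interval -0.59 to 1.01, edgeR adjusted p = 0.835), and it was 0.68 without Sham replicate 2, past the unadjusted threshold, and -0.052 without Sham replicate 3. Ciita was highest in Sham replicate 2, where Cd74, RT1-Da and RT1-DMb were also highest among the Sham libraries.

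Ctss, the cathepsin that cuts the invariant chain in antigen-presenting cells, was at 39.9, 43.5 and 46.9 CPM in Sham and at 26.0, 32.8 and 36.7 CPM in SNI-NP. Every SNI-NP library lay below every Sham library, as for 8.14% of all genes tested in that direction. The means were 43.4 ± 3.50 and 31.8 ± 5.44 CPM (SD, n = 3 each). The level in SNI-NP was 0.733 times that in Sham, a log2 fold change of -0.45 (SE 0.15, 95% interval -0.80 to -0.10), with an unadjusted edgeR p of 0.0187 and an adjusted p of 0.436. DESeq2 gave -0.46 with an adjusted p of 0.247. Without Sham replicate 3 the log2 fold change was -0.42 and no longer passed the threshold.

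**Figure D4:**
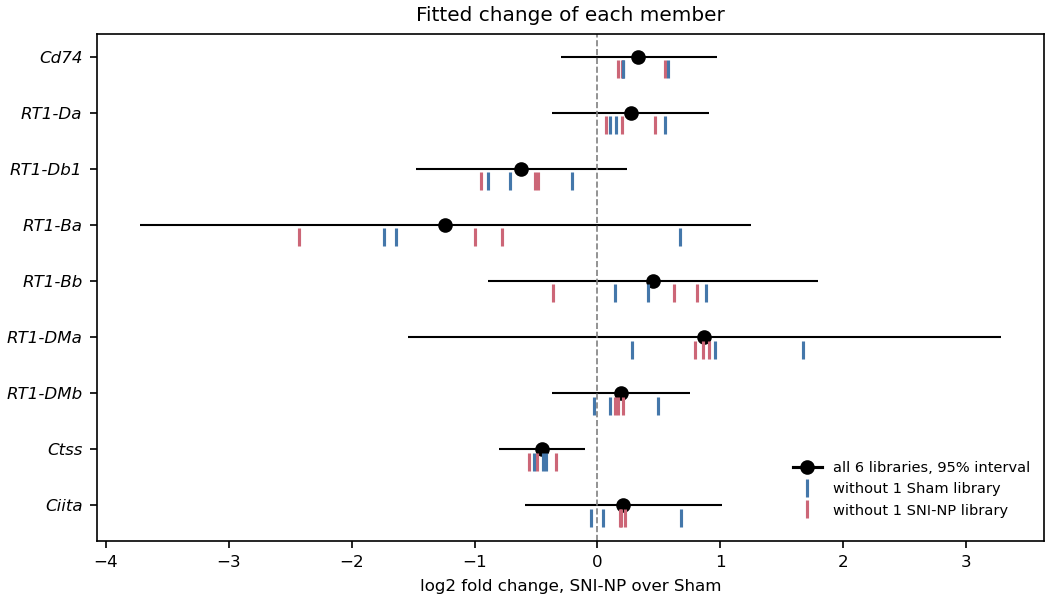
Fitted log2 fold change (SNI-NP over Sham, edgeR) of each of the 9 genes, with its 95% interval (black) and the values refitted without 1 Sham library (blue ticks) or 1 SNI-NP library (red ticks). The interval of Ctss, -0.80 to -0.10, lies below 0, and RT1-Ba, RT1-Bb, RT1-DMb and Ciita have a tick on each side of 0.

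Ctss is abundant in microglia, whose markers were not called with it. Of 9 microglial markers, including Csf1r and Aif1, 0 were called by edgeR in either direction, against 10.4% of all genes tested. Their median log2 fold change was 0.037. The log2 fold change was above 0 for 5 of them and below 0 for 4. Cx3cr1 was lower in SNI-NP without overlap between groups, as for 8.14% of all genes tested in that direction. It was not called, with a log2 fold change of -0.22 (SE 0.12). P2ry12 had one of -0.42 (SE 0.33), with overlap. The part of microglia in the lower level of Ctss was not tested. The summed level of the 9 markers was 301 to 382 CPM in Sham and 322 to 356 CPM in SNI-NP. Csf1r made up much of this sum, with means of 190 CPM in Sham and 187 CPM in SNI-NP. Ctss had 23.9, 20.2 and 25.0 counts for every 100 of Csf1r in Sham and 13.2, 18.3 and 20 in SNI-NP. For every 100 Cd74 counts it had 19.6, 13.9 and 22.5 in Sham and 13.3, 9.39 and 9.96 in SNI-NP. Both ratios were lower in all 3 SNI-NP libraries than in any Sham library, by a narrow margin. Against Aif1 the groups overlapped, with 332, 157 and 221 counts of Ctss for every 100 in Sham and 139, 147 and 171 in SNI-NP.

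None of the other tested proteases and helpers of the class II pathway was called lower. Of 17 accessory and processing genes that the deposited table holds, 14 were tested, 1 was higher and 0 were lower. The shares over all genes tested were 4.54% higher and 5.9% lower, so few calls were to be looked for. The median log2 fold change of the 14 was 0.12. The cathepsin genes Ctsb, Ctsd, Ctsl, Ctsh and Ctsz had log2 fold changes of 0.12, 0.081, 0.12, 0.069 and 0.13, each within 1 SE of 0. Ifi30, the thiol reductase of the antigen-processing endosome, had a log2 fold change of 0.19 (SE 0.13, edgeR adjusted p = 0.607). The gene called was RT1-DOa, the alpha chain of DO, which holds DM in check in B cells. It had 4, 12 and 7 counts in Sham and 16, 17 and 27 counts in SNI-NP. The groups did not overlap, as for 10.3% of all genes tested in that direction. The log2 fold change of RT1-DOa was 1.35 (SE 0.50, edgeR adjusted p = 0.436). RT1-DOb, the beta chain of DO, had 7, 22 and 9 counts in Sham and 7, 16 and 16 in SNI-NP, with a log2 fold change of 0.018 (SE 0.57). Marchf1, on the same list, was too low to test, with 11, 7 and 17 counts in Sham and 5, 3 and 2 in SNI-NP. With no count filter Marchf1 was called lower, with a log2 fold change of -1.8.

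Among 11 transcription factor genes of class II, all tested, 1 was higher and 0 were lower, with a median log2 fold change of 0.041. The shares over all genes tested were 4.54% higher and 5.9% lower. The gene called was Irf4, a factor of B cells, plasma cells and some dendritic cells. It had 22, 37 and 22 counts in Sham and 92, 54 and 38 in SNI-NP. Its groups did not overlap, as for 10.3% of all genes tested in that direction. The log2 fold change of Irf4 was 1.16 (SE 0.41, edgeR adjusted p = 0.436). Rfx5, which binds the X box, had a log2 fold change of -0.11 (SE 0.11, edgeR adjusted p = 0.72). RT1-DOa was no longer called when Sham replicate 1 (log2 fold change 1.04), the third Sham library (1.26) or SNI-NP replicate 3 (1.06) was left out. Irf4 was no longer called when Sham replicate 1 (1.02), the third Sham library (1.0) or SNI-NP replicate 1 (0.71) was left out.

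Some B cell markers were called in the same direction as these 2 genes. Of 5 tested B cell markers, 3 were called higher, among them Cd79a and Cd79b, parts of the B cell receptor complex, where 4.54% of all genes were. Ms4a1 and Blnk were not called, and Pax5, with 3, 5 and 4 counts in Sham and 1, 3 and 1 in SNI-NP, was too low to test. The summed level of 6 markers was 11.9 to 17.5 CPM in Sham and 20.3 to 26.4 CPM in SNI-NP. Cd79b was at 1.80, 1.35 and 2.27 CPM in Sham and at 3.80, 5.05 and 4.35 CPM in SNI-NP, with a log2 fold change of 1.28 (SE 0.28, edgeR adjusted p = 0.317). Of 5 erythroid genes, 4 were called higher as well. The part of B cells and of blood in the levels of RT1-DOa and Irf4 was not tested. Dendritic cell markers (28.9 to 33.8 CPM summed in Sham, 28.3 to 34.8 CPM in SNI-NP) and perivascular macrophage markers (84.4 to 164 and 93.0 to 133 CPM) had 0 genes called by edgeR. So had the lists for T cells, endothelium, astrocytes, oligodendrocytes and sensory neurons. Called higher were 1 of 6 granulocyte, 1 of 5 meningeal and 1 of 5 peripheral myelin markers. Called lower were 2 of 6 neuronal markers, where 5.9% of all genes were.

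In interferon-gamma signalling, the main inducer of Ciita, 7 of 9 genes were tested and edgeR called 0, against 10.4% of all genes tested. Their median log2 fold change was 0.066. Ifng itself had 1 count in Sham replicate 2, 1 in SNI-NP replicate 2 and 0 in the others, too few to test. Of 6 costimulation genes 4 were tested and edgeR called 0, with a median log2 fold change of 0.033.

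Class I presentation, the parallel pathway for cytosolic peptides, had 22 genes tested, 0 higher and 1 lower, with a median log2 fold change of 0.074. Of all genes tested, 4.54% were higher and 5.9% lower. The gene called was RT1-CE10, a class I heavy chain. It had 206.07, 32 and 44.94 estimated counts in Sham and 15, 15.98 and 39.5 in SNI-NP, with overlap between groups, and a log2 fold change of -2.04 (SE 0.80, edgeR adjusted p = 0.443). It was -0.71 without Sham replicate 1 and was not called without SNI-NP replicate 1 (-1.81) or 2 (-1.82) either. It also lost its call with the replicate number as a block (-1.63) and with limma on log2(FPKM + 1) (-1.16). B2m, the light chain of class I, had a log2 fold change of -0.20 (SE 0.28, edgeR adjusted p = 0.803). Over all 5 lists, 3 of 58 genes tested were called, 2 higher and 1 lower, against 10.4% of all genes, and 0 passed an adjusted p under 0.05 with edgeR or DESeq2.

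Over the 6 libraries, the log2 CPM of RT1-Da had a Pearson correlation of 0.97 with that of Cd74, as a description of 6 points. The values for the other genes with a mean of at least 5 CPM were 0.70 for RT1-DMb, 0.53 for RT1-Bb, 0.39 for RT1-DMa, 0.10 for RT1-Ba, 0.07 for Ctss and -0.09 for RT1-Db1. The 5 genes outside the group most like Cd74, of 11263 at that level, were Cpxm2 (0.997), Krt8 (0.993), Fxyd5 (0.988), Tmem176a (0.986) and Sdc2 (0.969).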

How the data were processed

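The 6 RNA-seq libraries (3 Sham, 3 SNI-NP) were grouped by their labels. The authors mapped reads to Rat6 and kept unique ones; the submitters' processing notes name FastQC, STAR and HTSeq, with no versions. The annotation, the use of strand and the step that gave fractional values are not given in the sources used here. The deposited values are estimated counts, one per gene and not normalized, and FPKM made by the authors. Counts were not whole for 10.9% of tested genes, among them RT1-DMa and RT1-DMb, which have near-identical copies; how reads were divided between copies is not stated.

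Estimated counts were rounded and tested with edgeR version 4.0.16 in R version 4.3.3 (filterByExpr, TMM, quasi-likelihood test, condition as the single term), with Benjamini-Hochberg adjustment over 14426 genes. CPM values use the TMM-scaled totals, and intervals are 95%. Of 22050 genes, 4542 had no count. At 16670760 to 18151156 counts per library, 3 counts (the floor for a gene at 0) are 0.167 to 0.18 CPM. Tests were run on simulated counts with planted changes larger than most of those fitted here. That run does not cover smaller changes. With 3 against 3 libraries, an exact permutation test cannot go below p = 0.1, so none is given.

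The 9 genes, the pathway and marker lists and the tests were chosen with earlier results of these data known. The genes named with values are the 9, the pathway genes with an unadjusted p under 0.05, RT1-DOa, RT1-DOb, Ifi30, Rfx5, Ifng and B2m, and the 5 genes most like Cd74; another gene of this rule is not reported here. Others, such as the copies, LOC103690108, the cathepsins, Marchf1 and the markers with values, were chosen after their values were seen. The 16 alternatives were DESeq2 version 1.42.0, RLE and upper-quartile factors, no count filter, a minimum of 10 counts per sample throughout, a replicate block, length offsets (loess) with and without that block, limma version 3.58.1 on log2(FPKM + 0.1) and log2(FPKM + 1), and dropping 1 of the 6 libraries at a time; 1 more, summing copies, was added after seeing the data.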

Additional observations from a re-analysis of the deposited data

How the results depend on the processing

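The 3 libraries per group, counts shared between RT1 copies and the lack of any stated pairing limit these results. Of the 9 class II genes, 1 passed the threshold with all libraries and 1 to 3 without 1 library; the further genes were Cd74 (without SNI-NP replicate 1, 2 genes in all), RT1-Db1 (without SNI-NP replicate 3, 2) and RT1-DMb and Ciita (without Sham replicate 2, 3). Without Sham replicate 3 the 1 gene was RT1-Db1 (-0.89), and Ctss was lost (-0.42). The median log2 fold change of 0.21 became 0.068 to 0.49 without 1 library. Of the pathway genes, 3 passed with all libraries, and 0 (without Sham replicate 1) to 5 (without Sham replicate 2) without 1 library. With no count filter 4 passed, the added gene being Marchf1 (-1.8). With limma on log2(FPKM + 1) 1 passed, RT1-DOa (0.5), while Irf4 (0.36) and RT1-CE10 (-1.16) did not. Signs reversed without 1 library for RT1-Ba (-2.43 to 0.67, reversed without Sham replicate 1), RT1-Bb (-0.36 to 0.88, SNI-NP replicate 2), RT1-DMb (-0.031 to 0.49, Sham replicate 1) and Ciita (-0.052 to 0.68, Sham replicate 3); the cause was not tested. Ctss was past the threshold in 16 of 17 alternatives, with log2 fold changes from -0.56 to -0.34. No class II gene passed an adjusted p under 0.05 in any alternative run; edgeR with all libraries had 1 of them at an unadjusted p under 0.05.

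The deviations of same-numbered libraries from their group means had correlations of 0.214, -0.143 and 0.0538. Without a comparison to other pairs of libraries, these values cannot settle whether the numbers pair rats, which no label states. With the replicate block, 1 class II gene and 2 pathway genes passed (RT1-CE10 was lost, -1.63, and -1.66 with length offsets added), the median was 0.26, RT1-Ba was at -0.54 and 1319 genes were called, against 1506 without it. RT1-DMa reached 2.69 with limma on log2(FPKM + 0.1) and could not be fitted with at least 10 counts in every sample. Over all genes, edgeR called 655 higher and 851 lower, and limma on log2(FPKM + 1) called 429 higher and 1211 lower.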
